A study of Mus musculus with 12 samples.

Results

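A set of 10 Wnt pathway genes was followed in mouse mammary tumour cells treated with inhibitors of the receptor kinases Met and FGFR. They are genes that canonical Wnt signalling is known to switch on (Axin2, Nkd1 and Lgr5), the transcription factors Lef1 and Tcf7, the secreted inhibitors Dkk2, Dkk3, Sfrp1 and Sfrp2, and the ligand Wnt5a. The members are the rows of the deposited count table that carry these symbols, 10 of 55573 genes, and 6 of them (Axin2, Nkd1, Lgr5, Lef1, Tcf7 and Sfrp1) were among the 13836 genes with enough counts to be tested. The cells were tumourspheres, cultures grown in suspension, of the spindloid lines A1005, A1129 and A1471. Each line came from a separate mammary tumour of the genotype MMTV-Metmt;Trp53fl/+;Cre, in which the mammary tumour virus promoter drives a mutant Met and Cre acts on a conditional Trp53 allele. All 4 groups share this genotype and the growth factors of the sphere medium, which include EGF, bFGF and insulin. Each line was exposed for 24 h to DMSO as vehicle, to the Met inhibitor Crizotinib (1 µM), to the FGFR inhibitor PD173074 (1 µM) or to both (Combo), which gives 12 libraries and n = 3 lines per treatment. Total counts per library were 13031492 to 17750476, so that 3 counts correspond to 0.167 to 0.234 CPM (counts scaled by library size and the TMM factors of edgeR).

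In canonical Wnt signalling a Wnt ligand binds a Frizzled receptor and its co-receptor Lrp5 or Lrp6, and the complex that degrades beta-catenin is silenced. Beta-catenin then enters the nucleus and joins factors of the TCF/LEF family on their target genes. Axin2 is both a target and a scaffold of the destruction complex, and with Nkd1 it closes a negative feedback loop. In the mammary gland the pathway is known for its part in stem and progenitor cells, and Lgr5 marks such cells in several epithelia.

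The mesenchymal markers Vim and Fn1 were abundant in these libraries. The summed level of 5 mesenchymal markers was 3137 to 4513 CPM with DMSO, against 16.1 to 39.6 CPM for 6 epithelial markers, with Krt5 at 0 counts in every library and Epcam at 0.62 CPM at most with DMSO. Vim alone had 2890 ± 353 CPM (SD, n = 3) and Cdh2, on the mesenchymal list as well, had 0 to 2 counts with DMSO. Of the epithelial list, Krt18 (145 to 579 counts) and Krt8 (17 to 187 counts) were expressed with DMSO. The 4 endothelial markers summed to at most 0.888 CPM in any library. The 5 immune markers summed to 4.34 to 31.3 CPM with DMSO, and Ptprc was at 13.6 to 20.5 CPM in the 4 libraries of A1005 and at 0.14 CPM or less in the other lines. Spry4, a feedback inhibitor induced by ERK signalling and used here as a check of the treatment, was 24.6 CPM at most with DMSO and 0.63 CPM at most with the Combo, a log2 fold change of -5.98 (SE 0.94, edgeR quasi-likelihood test, adjusted p = 0.00343). Its mean was 17.7 ± 7.4 CPM with DMSO, 21.1 ± 12.1 with Crizotinib and 8.9 ± 5.3 with PD173074 (SD, n = 3). Spry4 was thus not lower in mean with Crizotinib alone, and it cannot show whether that treatment acted. In bulk RNA, fewer cells of a type and less RNA per cell cannot be told apart.

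Per kilobase of exon and with DMSO, Tcf7 had the highest mean level of the 10 genes, followed by Sfrp1. The mean was 7.45 ± 2.60 CPM per kb for Tcf7 (SD, n = 3) and 5.72 ± 7.99 for Sfrp1. Without scaling by exon length, Sfrp1 had the higher mean with DMSO (25.0 against 19.6 CPM). The mean of Sfrp1 rests on A1005 (14.9 CPM per kb), and in A1471 it lay below Nkd1 (0.743 against 0.970). Axin2 followed at 0.496 ± 0.483, Nkd1 at 0.335 ± 0.550, Lef1 at 0.192 ± 0.175, Dkk2 at 0.166 ± 0.287 and Lgr5 at 0.0268 ± 0.0410. The neighbours in this order did not differ beyond their spread over the lines, because the SD of every gene but Tcf7 was about as large as its mean or larger. Dkk3 had 2 counts in all 12 libraries together, Sfrp2 had 1 and Wnt5a had 7, none above 2 counts in any library. These genes lay below the limit of 3 counts that a count of 0 allows, and any change in them was not detectable at this depth.

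Much of the variation of these genes lay between the cell lines. On the log2 CPM scale (prior count 2), the means of the 3 lines spanned 5.0 for Nkd1, 3.81 for Sfrp1 and 3.46 for Lgr5, whereas the means of the 4 treatments spanned 0.59, 0.81 and 0.85. Nkd1 was found mainly in A1471, Sfrp1 mainly in A1005 and Lgr5 mainly in A1471. Axin2 and Tcf7 varied more between treatments, with spans of 2.29 against 1.82 for Axin2 and 1.02 against 0.79 for Tcf7. Each line is a culture from 1 tumour, so these differences between lines are given as a description, with no test. The plot of the expression in each library shows these line levels beside the treatments.

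**Figure D1:**
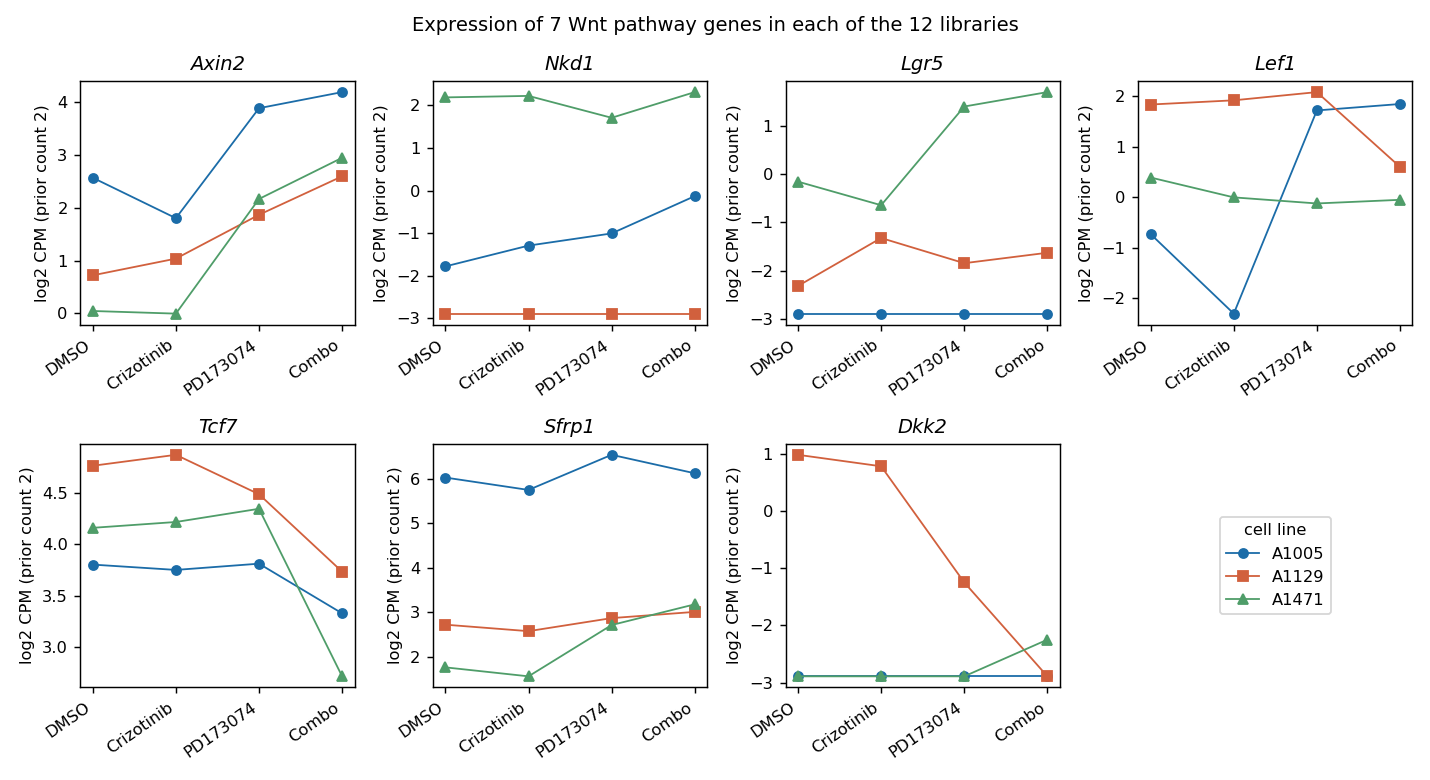
Level of 7 Wnt pathway genes (log2 CPM, prior count 2) under each treatment, with 1 point per library and lines joining the libraries of 1 cell line. Axin2 is highest with the Combo and Tcf7 lowest in all 3 lines, while Nkd1, Lgr5, Sfrp1 and Dkk2 separate by cell line. Lines of Nkd1, Lgr5 and Dkk2 that lie on the lower edge are libraries at or near 0 counts.

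Axin2 (ENSMUSG00000000142) lies at chr11:108920349-108950783 on the plus strand of mm10 and encodes the inducible scaffold of the beta-catenin destruction complex. Its promoter window and that of Tcf7 (ENSMUSG00000000782, chr11:52252371-52283014, minus strand) are shown because these genes carry the changes described next. The windows come from RefSeq (GRCm38.p6) and run from 250 bases before to 50 after the transcription start, read 5′ to 3′ on the gene's strand. The window of Axin2 is chr11:108920099-108920398 and that shown for Tcf7 is chr11:52282965-52283264. RefSeq holds a second window for Tcf7 (chr11:52282546-52282845), and whether either lies upstream of every transcript of the gene was not examined. In the Tcf7 window shown, an ATG ahead of the stated start opens a reading frame without a stop codon to the window's end. That window may therefore hold coding sequence of a longer transcript and not only a promoter.
Axin2: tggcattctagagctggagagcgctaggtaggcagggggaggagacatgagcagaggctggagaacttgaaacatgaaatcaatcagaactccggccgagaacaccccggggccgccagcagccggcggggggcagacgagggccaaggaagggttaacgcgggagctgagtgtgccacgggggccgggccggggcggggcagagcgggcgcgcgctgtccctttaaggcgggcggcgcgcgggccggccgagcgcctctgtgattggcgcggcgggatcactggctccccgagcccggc
Tcf7: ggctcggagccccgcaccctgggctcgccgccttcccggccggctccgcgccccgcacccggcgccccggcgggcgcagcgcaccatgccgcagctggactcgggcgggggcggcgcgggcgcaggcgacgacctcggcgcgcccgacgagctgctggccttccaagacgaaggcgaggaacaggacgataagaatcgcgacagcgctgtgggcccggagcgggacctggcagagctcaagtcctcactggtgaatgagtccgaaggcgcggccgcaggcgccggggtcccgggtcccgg
The windows of Axin2 and Tcf7 hold no TCF/LEF core, searched as CTTTGNN with each N an A or a T, on both strands, which says only that these letters are not in these windows. Of 32851 RefSeq windows, 16.9% held at least 1 core. RefSeq windows were found for 6 of the 10 genes (Axin2, Dkk2, Lef1, Nkd1, Sfrp2 and Tcf7), and 1 of their 10 windows held a core. It is an alternative start of Lef1 within the gene (chr3:131156044-131156343, plus strand), where the core lies 147 bases before the start on the minus strand, shown in capitals.
Lef1: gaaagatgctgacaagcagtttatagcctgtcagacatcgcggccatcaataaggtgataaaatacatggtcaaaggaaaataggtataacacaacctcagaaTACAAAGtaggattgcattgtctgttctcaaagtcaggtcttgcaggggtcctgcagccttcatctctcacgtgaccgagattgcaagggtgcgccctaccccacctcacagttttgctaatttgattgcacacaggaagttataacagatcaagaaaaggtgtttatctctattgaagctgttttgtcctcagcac

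The level of Axin2 was higher with the Combo than with DMSO in 3 of 3 lines. With DMSO it was 5.78 CPM in A1005, 1.51 in A1129 and 0.898 in A1471, from 74, 23 and 13 counts. With the Combo it was 18.0, 5.89 and 7.54 CPM in the same lines, from 324, 94 and 100 counts. The lowest Combo library lay just above the highest DMSO library, and within a line the level was 3.12-fold higher in A1005, 3.89-fold in A1129 and 8.40-fold in A1471. Without regard to the line, the log2 fold change was 1.94 (SE 0.86) and did not pass the test (edgeR, adjusted p = 0.167). In the blocked fit, which compares libraries within each line, Axin2 rose by 2.11 (SE 0.31, adjusted p = 0.000314). That call held when each line was left out in turn, with log2 fold changes of 1.78 to 2.49 and adjusted p of 0.00253 to 0.00828.

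With PD173074 alone, Axin2 was at 14.6 CPM in A1005, 3.51 in A1129 and 4.34 in A1471. These levels exceeded DMSO within the line in 3 of 3 lines, by 2.52-fold, 2.32-fold and 4.84-fold, although the groups overlapped. The log2 fold change was 1.45 (SE 0.85, edgeR, adjusted p = 1) without the block. Blocked by line, Axin2 rose by 1.51 (SE 0.31, adjusted p = 0.0374). The blocked call was lost whichever line was left out, with adjusted p of 0.0891 to 0.295. With Crizotinib alone, Axin2 was at 3.35, 1.92 and 0.863 CPM in A1005, A1129 and A1471, lower than DMSO in 2 lines and higher in A1129, with a log2 fold change of -0.41 (SE 0.84, adjusted p = 1). Against Crizotinib, the Combo was higher by 2.35 (SE 0.87, adjusted p = 0.108) without the block, and Axin2 rose by 2.35 (SE 0.32, adjusted p = 0.000198) with the block. DESeq2 called this comparison without a block (adjusted p = 0.0285). Against PD173074, the difference of 0.60 with the block (SE 0.28, adjusted p = 0.115) did not pass, nor did the departure of the Combo from the sum of both inhibitors, 0.84 (SE 0.44, adjusted p = 0.216).

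Leaving out A1005 gave the Axin2 call in the unpaired fit as well, at 2.48 (edgeR, adjusted p = 0.0325) against DMSO and 2.28 (adjusted p = 0.0416) against Crizotinib. A1005 had the highest Axin2 of the 3 lines under every treatment. The 3 tested genes outside the members that followed Axin2 most closely were chosen by Pearson r of log2 CPM centred within each line over the 12 libraries. They were Tmem176a (r = 0.989), Cp, which encodes ceruloplasmin (0.988), and Steap4, a metalloreductase (0.987). Among the members, Sfrp1 had r = 0.895 and Tcf7 r = -0.675 with Axin2. These libraries share lines and treatments, so the values are a description.

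Tcf7 encodes TCF1, a DNA-binding partner of beta-catenin that is best known from T cells and also has isoforms without the beta-catenin binding domain, which counts per gene cannot separate. Its level was 13.8, 27.1 and 17.8 CPM with DMSO in A1005, A1129 and A1471. With the Combo it was 9.89, 13.2 and 6.41 CPM, and all 3 Combo libraries lay below all 3 DMSO libraries. The level was 1.40-fold lower in A1005, 2.06-fold in A1129 and 2.77-fold in A1471. The log2 fold change of -0.99 (SE 0.39) did not pass unpaired (edgeR, adjusted p = 0.12), whereas with the block Tcf7 fell by 0.96 (SE 0.21, adjusted p = 0.0034). With each line left out in turn, the blocked change was -1.21 to -0.75 and the call held, with adjusted p of 0.00298 to 0.0428.

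The single inhibitors left Tcf7 close to its DMSO level. It was 13.3, 29.2 and 18.5 CPM with Crizotinib and 13.9, 22.3 and 20.2 CPM with PD173074 in A1005, A1129 and A1471. With the block the log2 fold changes were 0.04 (SE 0.20, adjusted p = 1) and -0.02 (SE 0.21, adjusted p = 0.976). The Combo was lower by 1.0 than Crizotinib (SE 0.21, adjusted p = 0.00272) and by 0.93 than PD173074 (SE 0.21, adjusted p = 0.0067) with the block. The unpaired values were close to these, -1.05 (SE 0.39, adjusted p = 0.106) and -0.94 (SE 0.39, adjusted p = 0.222), and did not pass. The departure from additivity was -0.98 with the block (adjusted p = 0.047). The calls against PD173074 and for the departure were lost without A1129 (adjusted p = 0.0541 and 0.198) and without A1471 (0.0704 and 0.239).

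Lef1 (ENSMUSG00000027985, chr3:131110471-131224356, plus strand), which encodes the other TCF/LEF factor of the set, went in different directions in the 3 lines. With DMSO it had 6 counts in A1005, 52 in A1129 and 17 in A1471. With the Combo it had 62, 22 and 11 counts. A1005 was thus the low line with DMSO and the high line with the Combo. The within-line changes were 2.57, -1.23 and -0.44 on the log2 scale, and no fit called Lef1 (with the block 0.37, SE 0.85, adjusted p = 0.736). With PD173074 the counts were 52, 57 and 11, and with Crizotinib 1, 55 and 12, so that the A1005 library with PD173074 resembled that with the Combo.

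Nkd1 and Lgr5, the other target genes, were found in fewer lines. Nkd1 (ENSMUSG00000031661, chr8:88521354-88594884, plus strand) encodes a cytoplasmic inhibitor that binds Dishevelled. It had 64 counts with DMSO, 63 with Crizotinib, 44 with PD173074 and 64 with the Combo in A1471. In A1005 it had 2, 4, 6 and 14 counts, and in A1129 it had 0 in all 4 libraries. The change with the Combo was 0.62 with the block (SE 0.48, edgeR, adjusted p = 0.3).

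Lgr5 (ENSMUSG00000020140, chr10:115450311-115587780, minus strand) is a receptor for R-spondins, which strengthen Wnt signals at the cell surface. In A1471 it had 11 counts with DMSO, 7 with Crizotinib, 35 with PD173074 and 41 with the Combo. A1005 had 0 counts in all 4 libraries and A1129 had 1 to 4. The Combo value was 4.07-fold above DMSO in A1471, and over the lines the change of 1.86 with the block (SE 0.70, edgeR, adjusted p = 0.056) did not pass. It thus rests almost wholly on the counts of 1 line.

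**Figure D2:**
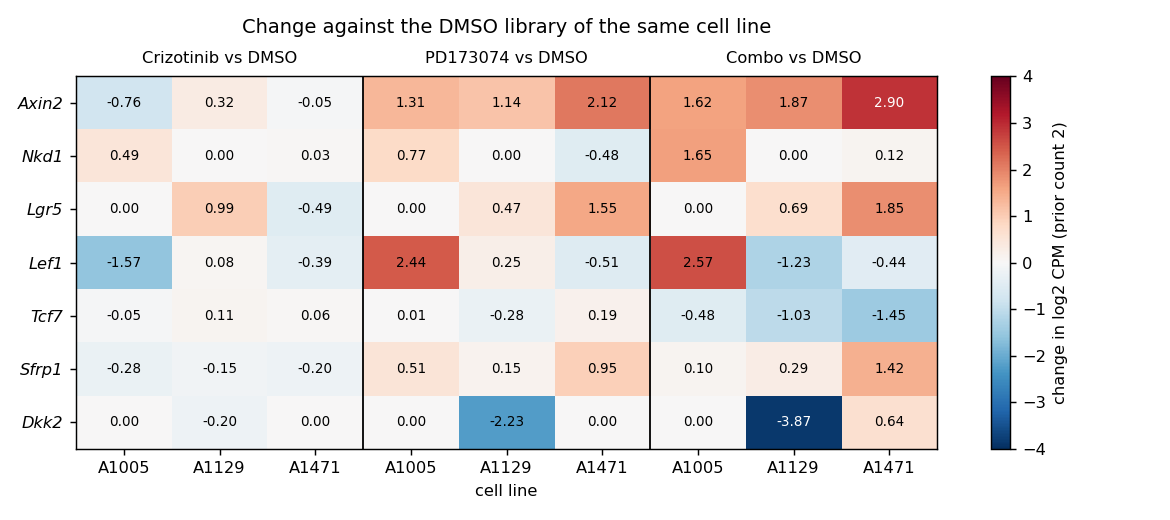
Change of 7 genes in log2 CPM (prior count 2) against the DMSO library of the same cell line, with the inhibitors in blocks of 3 lines. Axin2 is positive in all 6 libraries with PD173074 or the Combo, Tcf7 is negative in the 3 Combo libraries, and Lef1 is at 2.57 in A1005 and -1.23 in A1129 with the Combo.

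Of the secreted inhibitors, Sfrp1 and Dkk2 had more than a few counts. Sfrp1 (ENSMUSG00000031548, chr8:23411502-23449632, plus strand) encodes a protein that binds Wnt ligands outside the cell. Its level with DMSO was 65.3 CPM in A1005, 6.45 in A1129 and 3.25 in A1471. With the Combo it was 69.8, 7.90 and 8.90 CPM, with Crizotinib 53.8, 5.81 and 2.80, and with PD173074 93.1, 7.16 and 6.41. The line A1005 was far above the other lines with DMSO, whereas the treatments overlapped. The Combo exceeded Crizotinib in 3 of 3 lines, by 1.30-fold, 1.36-fold and 3.17-fold, and with the block Sfrp1 rose by 0.77 (SE 0.25, edgeR, adjusted p = 0.0226). Unpaired it was 0.47 (SE 1.56, adjusted p = 0.89). The blocked call was lost without A1129 (adjusted p = 0.0599) and without A1471 (adjusted p = 0.1). Against DMSO the blocked change of 0.55 (SE 0.24, adjusted p = 0.0763) did not pass.

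Dkk2 (ENSMUSG00000028031, chr3:132085292-132180304, plus strand) encodes a ligand of the co-receptors Lrp5 and Lrp6 that can block or, in some settings, favour Wnt signalling. It had counts in A1129, with 28 for DMSO, 24 for Crizotinib, 4 for PD173074 and 0 for the Combo, and otherwise 1 count in the A1471 Combo library. In A1129 the Combo was at least 9.80-fold lower than DMSO, set against the floor of 3 counts in that library. It did not pass the filter over all lines. It passed when A1005 or A1471 was left out, and the blocked fit then called it lower with the Combo (edgeR, adjusted p = 0.0342 and 0.0269). It passed the filter through the libraries where it was high, so those calls carry no weight of their own, and 1 line is no replicate of a treatment.

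**Figure D3:**
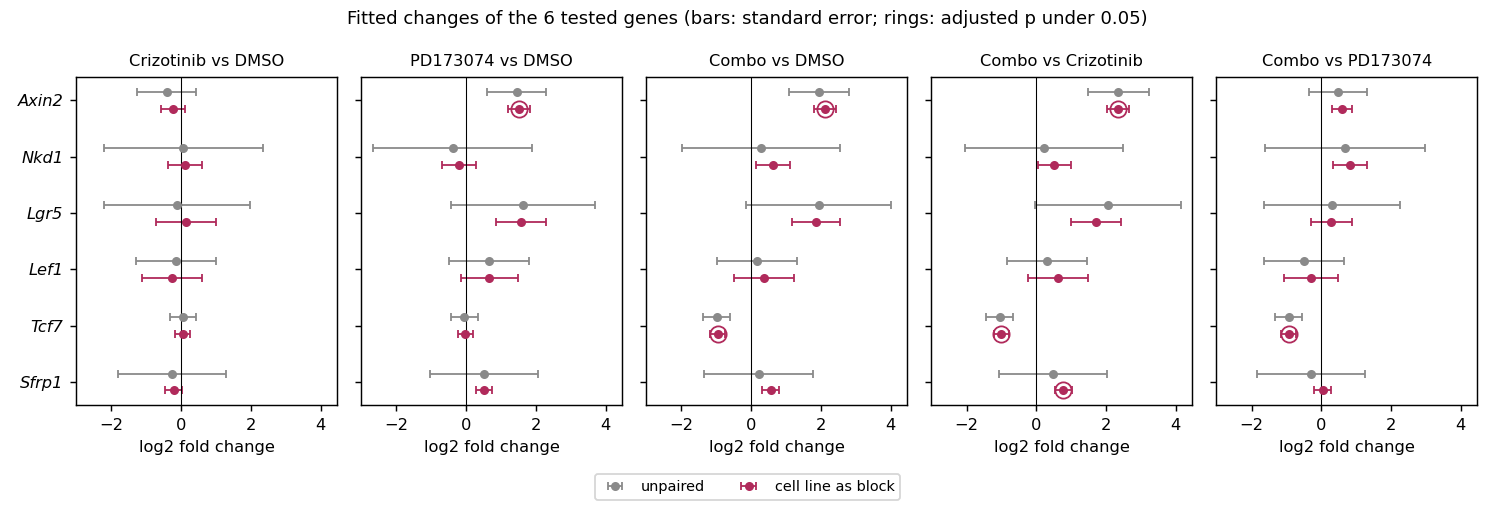
Log2 fold change of the 6 tested genes in 5 comparisons, unpaired (grey) and blocked by line (red), with bars of 1 standard error and a ring where the adjusted p is under 0.05. The error bars shrink with the block, most for Sfrp1, Nkd1 and Lgr5. Rings are on Axin2 for PD173074 and the Combo against DMSO and for the Combo against Crizotinib, on Tcf7 for each Combo comparison and on Sfrp1 for the Combo against Crizotinib.

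Counted over the members, 0 of the 6 tested genes passed in any of the 6 comparisons in the unpaired edgeR fit, in which 14.4% of all tested genes were called with the Combo against DMSO, 0% with PD173074 and 0% with Crizotinib. The shares were 13.2% for the Combo against Crizotinib, 4.77% for the Combo against PD173074 and 0.918% for the departure from additivity. At an unadjusted p under 0.05, 2 of the 6 passed with the Combo against DMSO (28.9% of all tested genes), 2 for the Combo against Crizotinib (28.4%) and 1 for the Combo against PD173074 (18.9%), and 0 for PD173074 (2.22%), Crizotinib (0.13%) and the departure (9.03%). DESeq2 called 1 member, Axin2 for the Combo against Crizotinib (21.2% of all tested genes), and 0 for the Combo against DMSO (21.9%), PD173074 (0.123%), Crizotinib (0.00723%), the Combo against PD173074 (11.2%) and the departure (3.32%). DESeq2 gave an adjusted p for only 2 of the 6 members (Axin2 and Tcf7) for PD173074 and for the departure, for 4 in the Combo against PD173074 and for 5 elsewhere, so that the others could not be called. Limma-voom called 0 in the 6 comparisons, with shares of 14% for the Combo and 0% for each inhibitor against DMSO, 13.4% and 4.74% for the Combo against Crizotinib and PD173074, and 0.976% for the departure. With the block, 2 of 6 were called for the Combo against DMSO (54.8% of all tested genes), 1 for PD173074 (2.14%), 0 for Crizotinib (0%), 3 for the Combo against Crizotinib (53.4%), 1 for the Combo against PD173074 (39.8%) and 1 for the departure (16.2%). Read against these shares, the counts of members with the Combo were near or below those of all genes. The comparisons with DMSO share the same 3 control libraries.

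The wider pathway was described with a list of 86 further Wnt genes, of which 59 were tested. With the Combo against DMSO, 9 of 59 rose and 1 fell in the unpaired fit (6.1% and 8.28% of all tested genes did so), and with the block 36 rose and 7 fell (28.6% and 26.2%). The median log2 fold change of the list was 0.55 unpaired, beside 0.02 for all tested genes and 0.25 for the 6 members. Blocked by line, the medians were 0.54 for the list and 0.59 for the members, and limma-voom gave 0.54 and 0.59, so the gap between list and members did not hold across the fits. DESeq2 called 16 and limma-voom 11 (21.9% and 14% of all tested genes). In the unpaired fit no listed gene was called for PD173074, for Crizotinib, for the Combo against PD173074 or for the departure. The shares of all tested genes there were 0%, 0%, 4.77% and 0.918%. For the Combo against Crizotinib, 9 were called (13.2% of all tested genes). With the block the counts in this order were 5, 0, 28, 10 and 39, beside 2.14%, 0%, 39.8%, 16.2% and 53.4% of all tested genes.

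Counted as genes, Wnt ligands and the genes that make and release them were mostly higher with the Combo. Of 10 tested genes of this group, 3 rose unpaired and 7 with the block, and 1 fell with the block only. Of all tested genes, 6.1% rose unpaired, and 28.6% rose and 26.2% fell with the block. Wnt4, a ligand of the mammary epithelium, was at 0.33 to 0.78 CPM with DMSO and 6.12 to 15.4 CPM with the Combo (log2 fold change 4.13, edgeR, adjusted p = 0.0102). Porcn, the enzyme that attaches the lipid of Wnt proteins, rose by 2.34 (adjusted p = 0.00861), and Wls, their carrier to the cell surface, rose by 2.0 (adjusted p = 0.00157). Wls was at 126 to 171 CPM with DMSO and 442 to 716 CPM with the Combo. Wnt7b, the most abundant listed ligand in A1129 and A1471 with DMSO, went the other way. It was 116, 62.1 and 209 CPM with DMSO in A1005, A1129 and A1471 and 50.2, 4.82 and 10.3 CPM with the Combo, and it fell by 2.79 with the block (SE 0.53, adjusted p = 0.00144) but did not pass unpaired (adjusted p = 0.0696). Wnt10b, Wnt9a and Wnt6 rose with the block, by 2.12, 2.65 and 2.57 (adjusted p = 0.000152, 0.000244 and 0.000386), and did not pass unpaired. Wnt10a, named here after its values were seen, was at 138, 7.76 and 23.7 CPM with DMSO in A1005, A1129 and A1471. Its levels with the Combo were 282, 6.77 and 70.8 CPM, slightly lower in A1129. Counts of genes do not give the direction of the summed ligand RNA, which was not tested.

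Among the nuclear factors, 4 of 10 tested genes rose unpaired and 9 with the block (6.1% and 28.6% of all tested genes did so). Bcl9l and Bcl9, adaptors that link beta-catenin to its coactivators, rose by 1.58 and 1.07 (edgeR, adjusted p = 0.00159 and 0.00773). Tcf7l1, which encodes a mainly repressive TCF factor, rose by 1.79 (adjusted p = 0.0192), and the corepressor Tle3 rose by 0.54 (adjusted p = 0.0115). Tcf7l2 rose with the block only, by 1.17 (adjusted p = 0.000527). Tcf7 was thus the member of the TCF/LEF family that fell, beside Tcf7l1 and Tcf7l2, which rose with the block, and Lef1, which was not called.

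In the remaining groups fewer genes passed unpaired. Of all tested genes, 6.1% rose and 8.28% fell unpaired, and 28.6% rose and 26.2% fell with the block. Of 14 tested receptors, the Wnt receptor Fzd2 rose by 1.60 (edgeR, adjusted p = 0.023), and 6 rose and 2 fell with the block, Fzd1 and Ror1 among those that rose (1.06 and 2.21). Of 15 genes of the cytoplasmic relay, Dvl3, which passes the signal from the receptors, rose by 0.91 (adjusted p = 0.0432). With the block 11 of the 15 rose, among them Gsk3b (0.68) and Apc2 (2.74) of the destruction complex, and 1 fell. Of 4 tested genes of the R-spondin axis, 1 fell unpaired, and 1 rose and 2 fell with the block. Znrf3, a ubiquitin ligase that removes Frizzled receptors and is itself a Wnt target, fell by 0.90 (adjusted p = 0.0177), and Lgr4, a receptor for R-spondins, rose by 1.20 with the block (adjusted p = 0.000104). Lgr6, another R-spondin receptor, which is named here after its values were seen, was at 111, 10.8 and 11.1 CPM with DMSO in A1005, A1129 and A1471 and at 50.2, 0.188 and 0 CPM with the Combo. It fell by 2.60 with the block (SE 0.71, adjusted p = 0.0107) and did not pass unpaired (adjusted p = 0.731). Of the secreted or surface inhibitors outside the members, 4 of 13 were tested and 0 passed unpaired, while 1 rose and 1 fell with the block. Of the other TCF target genes, 2 of 4 were tested and 1 rose with the block.

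**Figure D4:**
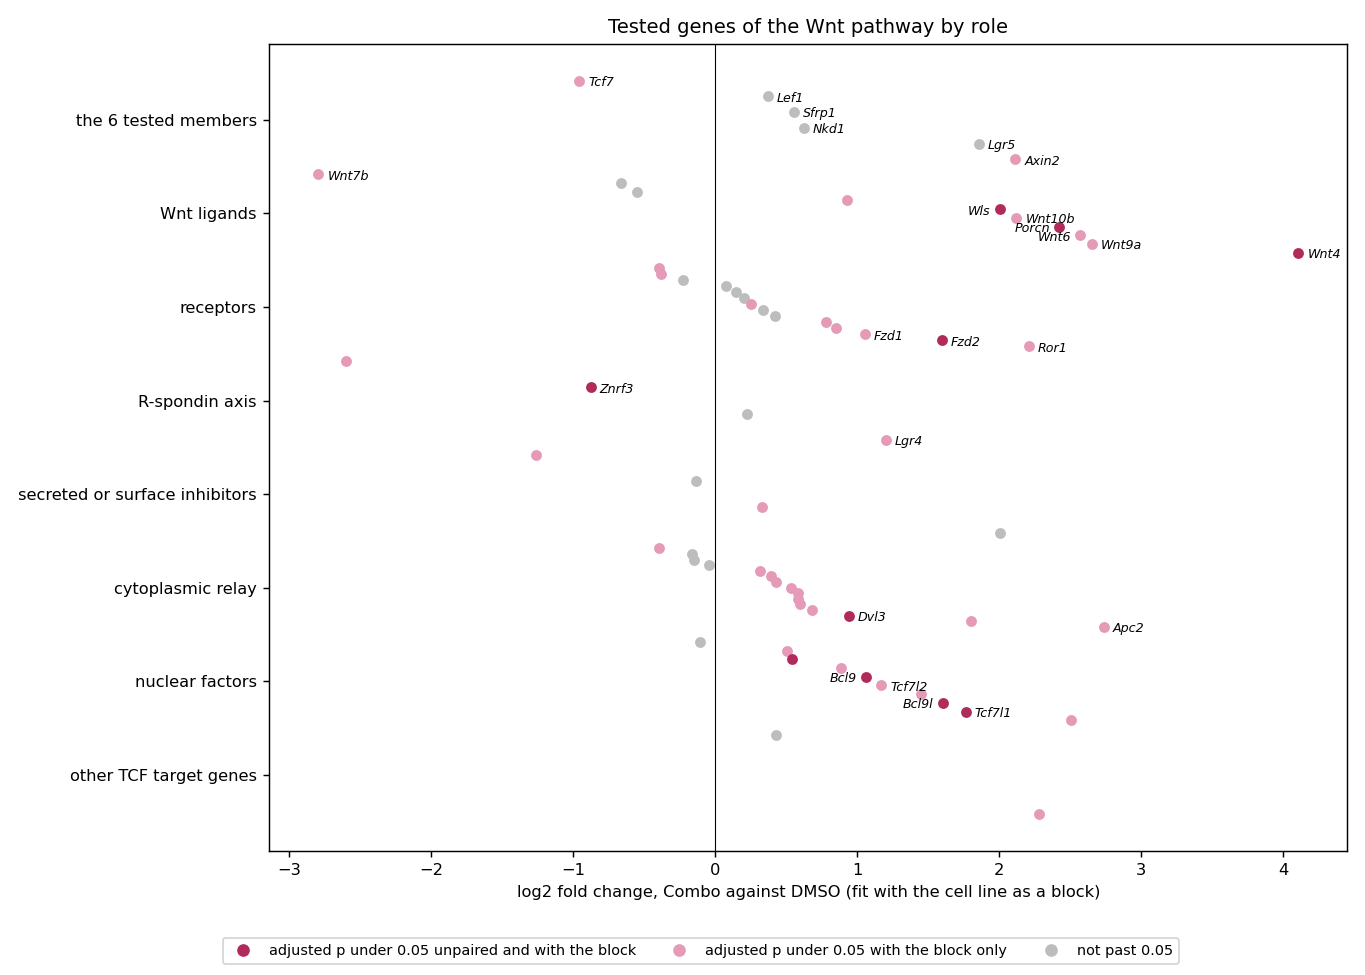
Log2 fold change with the Combo against DMSO (fit blocked by line) of the 6 tested members and the 59 tested listed genes, 1 point per gene, grouped by role and coloured by the test it passed. Ligand genes and nuclear factors lie mostly to the right of 0, with Wnt4 at 4.11 and Wnt7b at -2.79. Axin2 and Tcf7 lie on opposite sides of 0.

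Other measures moved with the Combo beside these genes. The summed level of 4 proliferation markers, all tested, was 1650 to 2199 CPM with DMSO and 277 to 450 CPM with the Combo. The summed level of 5 fibroblast markers, 3 of them tested and 2 at 0 counts in the DMSO libraries, was 134 to 328 CPM with DMSO, 254 to 694 with PD173074 and 340 to 910 with the Combo. Their part in the changes of Axin2, Tcf7 and the listed genes was not tested. The antisense genes that share exons with Axin2, Lef1, Sfrp2 and Wnt5a had 0, 7, 1 and 0 counts in all 12 libraries. The strand setting of the counting is not given, so these counts cannot show how many reads the members lost to the overlap.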

How the data were processed

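Gene expression was measured by RNA-sequencing of 12 tumoursphere libraries (NextSeq500), and treatment and cell line were read from the labels. The authors deposited 1 table of raw counts of reads per Ensembl gene, without normalization, from reads aligned with STAR to mm10; the submitters' processing notes also name bcl2fastq and HTSeq. The strand setting and annotation release are not given in the sources used here, and columns of other samples were not found. Gene coordinates and exon lengths came from GENCODE for this build (55480 of the table's genes matched).

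Low genes were removed by filterByExpr (at least 10 counts, total at least 15). The rest were scaled by TMM and fitted by quasi-likelihood in edgeR 4.0.16 (R 4.3.3), in 1 fit over all 12 libraries, unpaired as in the study's methods (which name DESeq2 and limma), with Benjamini-Hochberg adjustment over 13836 genes and a threshold of 0.05 (two-sided). Libraries of the same line are paired by the labels. Their deviations from the treatment means correlated at 0.766 or more (18 pairs), against -0.0472 or less between lines (36 pairs). Subtracting the mean of 3 lines pushes the correlation between lines below 0, so only the same-line value bears on the pairing. The blocked value is therefore given where it changes a call. Of 66 library pairs 0 were identical, with a chi-square of at least 3.33 per degree of freedom. No source says that replicates are more than 1 culture per line. Counting intervals and floors cover counting error only. Each SE of an edgeR change was derived as the absolute log2 fold change divided by the square root of the F statistic. DESeq2 1.42.0, limma-voom (limma 3.58.1), 2 other scalings, 2 other filters, a fold threshold, the compared groups alone and leaving out each line were alternatives. The tests were also run on simulated counts, and the outcome is not given here. That run does not show how the tests behave for genes with few counts or with large differences between lines. The members and gene lists were chosen with earlier results of these data known. Listed genes were named by the lowest p with the block, at most 20, among those past 0.05 with the Combo against DMSO. Spry4 was the check of the treatment, and it bears on the Combo and not on Crizotinib alone. Met and Fgfr1 were named in advance as well, but inhibitors of kinase activity need not change their RNA. Their levels thus cannot show whether the treatment worked. Met and Fgfr1 were not called with the Combo against DMSO (log2 fold changes 0.30 and -0.11, edgeR, adjusted p = 0.722 and 0.711).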

Additional observations from a re-analysis of the deposited data

Results flagged for a closer look

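Lef1 changed in opposite directions between the lines with the Combo, from -1.23 in A1129 to 2.57 in A1005 on the log2 scale against DMSO within that line. Each line has 1 library per treatment, so the difference between lines was not tested.

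With all 3 lines, the effect of the Combo on Tcf7 differed from the sum of the effects of both inhibitors, by -0.98 on the log2 scale in the fit blocked by line (edgeR, adjusted p = 0.047). This call was lost without A1129 (-1.02, adjusted p = 0.198) and without A1471 (-0.65, adjusted p = 0.239). The Combo was below PD173074 in 3 of 3 lines, and the unpaired fit did not call the departure.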

How the results depend on the processing

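With the cell line as a replicate block in place of the unpaired fit, the members called went from 0 to 2 with the Combo against DMSO, 1 with PD173074, 3 for the Combo against Crizotinib, 1 for the Combo against PD173074 and 1 for the departure. The listed Wnt genes called went from 10 to 43, from 0 to 5, from 9 to 39, from 0 to 28 and from 0 to 10 in the same order. The shares of all tested genes rose along with them, from 14.4% to 54.8%, 0% to 2.14%, 13.2% to 53.4%, 4.77% to 39.8% and 0.918% to 16.2%, and Crizotinib against DMSO had 0 of either with and without the block. DESeq2 called 1 member for the Combo against Crizotinib, and 16, 14 and 8 listed genes for the Combo against DMSO, Crizotinib and PD173074. Its shares of all tested genes there were 21.9%, 21.2% and 11.2%. With only the groups compared in the fit, 5 and 4 listed genes were called for the Combo against DMSO and Crizotinib, and a fold threshold of 1.5 (log2) left 6 for the Combo against DMSO. For the Combo against PD173074, limma-voom called 1 listed gene (4.74% of all tested genes), total counts alone 1 and at least 10 counts in every library 2. Shares of all tested genes are not given here for the compared groups alone, the fold threshold, total counts alone or the higher count filter. The counts under those settings thus cannot be set against all genes.

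Leaving out each line gave 0 to 1 members unpaired for the Combo against DMSO and 0 to 1 against Crizotinib, the 1 being Axin2 without A1005. Listed genes ranged from 0 to 11, 0 to 11 and 0 to 3 for the Combo against DMSO, Crizotinib and PD173074, with 0 without A1471 in the first and second and 2 and 3 without A1129. With the block, members ranged from 2 to 3 for the Combo against DMSO, 0 for PD173074, 3 to 4 for the Combo against Crizotinib, 0 to 1 for the Combo against PD173074 and 0 to 1 for the departure. The counts against DMSO and Crizotinib include Dkk2 without A1005 and without A1471, which entered through the A1129 libraries where it is high. Without A1129 the count against Crizotinib includes Lgr5 (2.59, edgeR with the block, adjusted p = 0.047), whose counts come almost wholly from A1471. Listed genes with the block ranged from 27 to 39, 0 to 1, 26 to 38, 7 to 22 and 0 to 9, beside 36.8% to 50.3%, 0.0285% to 0.95%, 34.8% to 48.2%, 17.1% to 34.9% and 3.02% to 12.4% of all tested genes. Unpaired, the shares of all genes were 0.856% to 14.9%, 0.777% to 13.5% and 0.428% to 4.62% for the Combo against DMSO, Crizotinib and PD173074. The cause of these differences was not tested; 2 lines leave fewer libraries. DESeq2 gave no adjusted p for Sfrp1 in any comparison and for other members in some, and the fit of only the compared groups has no departure. Of 781 alternative values of single genes, 40 lost a call, 30 gained 1, and 27 changed sign without passing in either fit, the largest of their main values being 0.67 on the log2 scale. No gene that passed changed sign. Genes under 3 counts could not be judged at this depth.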
